A study of Sus scrofa with 9 samples.

Results

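Levels of 10 genes of activin, Nodal and BMP signalling were read from RNA-seq of pig (Sus scrofa) blastocysts: the ligand genes NODAL, INHBA and BMP4, the activin inhibitor FST, the receptor genes ACVR1B, ACVR2A and BMPR2, and the signal transducers SMAD2, SMAD3 and SMAD4. A locus, meaning a group of overlapping transcripts assembled by the authors, was taken for a gene when the deposited table gives it that gene's name. That rule found 29 of 88800 loci, for 9 of the 10 names. No locus carries the name NODAL, so NODAL has no value here. Of the 29 loci, 8 hold a transcript that matches a known transcript of the gene (annotated loci), and in the other 21 the transcripts that carry its name lie antisense to it, in its introns or across part of its exons. In 6 of these 21 the locus also holds unnamed transcripts outside genes, and in 1, the ACVR2A locus MSTRG.31181, a transcript named for another gene, so their locus values are not values of the named transcripts alone. For the annotated loci, 16 transcripts match a known transcript or share a splice junction with one.

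Activins are dimers of inhibin beta chains, INHBA encoding one of them, and Nodal is a related ligand. Both bind a type II receptor such as ACVR2A, which activates the type I receptor ACVR1B, and SMAD2 and SMAD3 are then phosphorylated and enter the nucleus with SMAD4. BMP4 signals through the type II receptor BMPR2 and its type I partners to a different set of SMADs, which also use SMAD4. In mammalian embryos of this stage the pathways are known for their roles in the epiblast, the source of the embryo proper, and in the trophectoderm, the outer epithelium that contributes to the placenta.

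The labels describe 9 blastocyst samples, 3 each from embryos with no injection, with a control siRNA and with an siRNA against INO80, which encodes a chromatin remodelling ATPase. Tissue is given only as embryo and strain only as porcine, with no age in days. The tables have 9 columns of FPKM (fragments per kilobase of transcript scaled to the number of mapped fragments), headed Uninjected 1 to 3, Sham-water 1 to 3 and INO80 siRNA 1 to 3. Headings and labels are at odds: samples titled Sham-water carry the siRNA entry INO80-siRNA, no column is headed control siRNA, and no sample title matches the INO80 siRNA headings. The libraries are therefore grouped by heading, and every direction below is between libraries headed in that way. Nothing in the labels tells whether the 3 libraries of a heading were made from separate embryos, and p-values reflect only how far these libraries differ, a spread that may be technical.

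The INO80 locus itself did not separate the headings. Its level was 0.737, 1.09 and 1.92 FPKM in the Uninjected libraries, 1.72, 0.716 and 1.90 in the Sham-water libraries, and 0.331, 1.37 and 2.18 in the INO80 siRNA libraries. Annotated transcripts are those that match a known transcript, lie within one or share a splice junction with it. They held between 50.3% and 86.1% of the signal of a library (FPKM times length), lowest in INO80 siRNA 3 and highest in Sham-water 3. Trophectoderm markers were present in all 9 libraries, with KRT8, a keratin of this epithelium, at 631 to 4310 FPKM and GATA3, a trophectoderm transcription factor, at 5.32 to 39.0 FPKM. Among epiblast markers POU5F1 reached 17.6 to 126 FPKM, while SOX2 was at or near 0 in 7 libraries, at 0.753 FPKM in Uninjected 3 and at 1.36 FPKM in Sham-water 2. Libraries are whole embryos, in which fewer cells of a type and less RNA per cell cannot be told apart.

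None of the 27 member loci that could be tested differed between heading groups, where a difference means an adjusted p under 0.05 in limma across all 67107 loci whose mean reached 1 FPKM under at least 1 heading. Adjusted p ran from 0.915 to 1.0 for Sham-water against Uninjected, from 0.814 to 0.994 for INO80 siRNA against Uninjected, and from 0.46 to 0.974 for INO80 siRNA against Sham-water. Calls were almost absent from the whole table as well: 0% of tested loci passed in the first comparison and 0.00149% (1 locus) in each of the others. At an unadjusted p under 0.05 the member loci numbered 1, 3 and 2 of 27 in that order, against 4.24%, 5.33% and 10.6% of all tested loci. The SMAD3 locus and the annotated ACVR1B locus were below the minimum in every group and were not tested. For INO80 siRNA against Sham-water, the sign of the difference changed under another scaling for annotated BMP4, ACVR2A, BMPR2, SMAD2 and SMAD4, and not for FST. The 3 comparisons share libraries in pairs, so their values are given side by side and not compared.

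In level, FST stood first among the 8 annotated loci and ACVR1B last. Over the 9 libraries the median was 16 FPKM for FST, 6.57 for SMAD2, 3.32 for BMP4, 2.52 for SMAD4, 1.19 for ACVR2A, 0.886 for BMPR2, 0.375 for SMAD3 and 0.238 for ACVR1B. The order of SMAD2 above BMP4 held in 9 of 9 libraries and that of SMAD4 above ACVR2A in 8. The other neighbours crossed more often: FST was above SMAD2, ACVR2A above BMPR2 and BMPR2 above SMAD3 in 7 libraries each, SMAD3 above ACVR1B in 6, and BMP4 above SMAD4 in 5. FPKM is scaled by length, which allows an ordering between genes, but a locus value joins transcripts of different lengths. The SMAD4 locus also holds a transcript that only overlaps its exons. The order of close neighbours such as ACVR2A and BMPR2 therefore holds for locus values only.

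**Figure D1:**
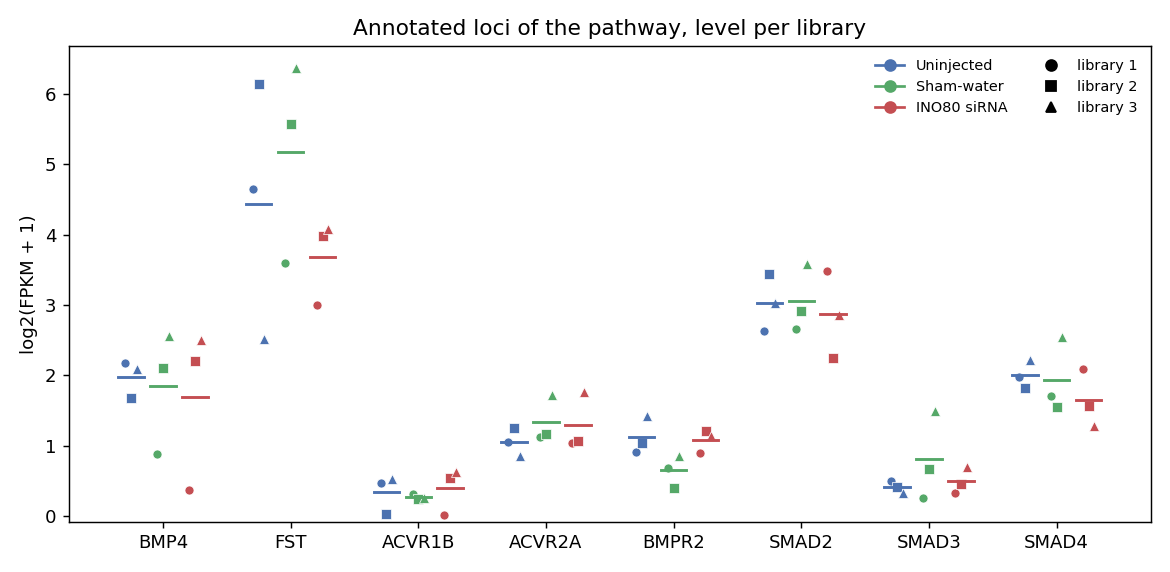
Level of the 8 annotated loci in each library, as log2(FPKM + 1) on the y axis, with points for single libraries, a colour per heading group and bars at the group means. FST and BMP4 spread most within a group, SMAD2 lies above BMP4 in all 9 libraries, and only BMPR2 has a group, Sham-water, with no overlap with the others.

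BMP4, the BMP ligand of the set, was read at MSTRG.6427 on chromosome 1 (203773959 to 203777645, minus strand; positions follow the deposited tables, and no source used here names their pig genome build). It reached 3.50, 2.21 and 3.26 FPKM in the Uninjected libraries, 0.849, 3.32 and 4.87 in the Sham-water libraries, and 0.294, 3.59 and 4.67 in the INO80 siRNA libraries. The first library of both injected headings was low and the other libraries of these headings lay close to or above the Uninjected ones, so the groups overlap. INO80 siRNA stood at -0.16 against Sham-water in log2(FPKM + 1), with a standard error of 0.683, a 95% interval from -1.65 to 1.33 and an adjusted p of 0.931. That interval includes differences of more than 1 log2 unit in either direction.

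INHBA, the activin A subunit, had no annotated locus. Its name stands on one locus of chromosome 18, MSTRG.43019 (57976284 to 58014353), built from a single transcript of 228 bases in 2 exons that overlaps INHBA exons without sharing a junction. This locus was at 30.6, 0.273 and 0 FPKM in the Uninjected libraries, at 4.90, 0 and 0 in the Sham-water libraries, and at 0.693, 0 and 0.262 in the INO80 siRNA libraries. Uninjected 1 held most of the signal, and the first library was the highest under all 3 headings. The values describe this short transcript and give no level of the INHBA messenger RNA.

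FST encodes follistatin, which binds activins and blocks them. Its annotated locus MSTRG.36765 (chromosome 16, 34778435 to 34785305, plus strand) was at 24.2, 70.0 and 4.73 FPKM in the Uninjected libraries, at 11.1, 46.9 and 81.6 in the Sham-water libraries, and at 6.99, 14.8 and 16 in the INO80 siRNA libraries. The highest library was 17.3 times the lowest. The INO80 siRNA libraries were all in the lower part of this range, but Uninjected 3 was below all of them and Sham-water 1 lay among them. Group means were 33.0 ± 33.5, 46.5 ± 35.2 and 12.6 ± 4.92 FPKM in that order (SD, n = 3). INO80 siRNA against Sham-water came to -1.49 in log2(FPKM + 1), with a standard error of 0.967, an interval from -3.61 to 0.62 and an adjusted p of 0.524, so this difference did not pass. It was -2.28 without Sham-water 1 and -0.90 without Sham-water 3.

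Of the receptors, the type I receptor ACVR1B was the lowest. Its annotated locus MSTRG.60933 (chromosome 5, 17901709 to 17938189, plus strand) stayed at or below 0.548 FPKM in all 9 libraries. A second sense locus with its name, MSTRG.60931, was far higher, at 24.7, 44.7 and 12.8 FPKM in the Uninjected libraries, 7.76, 56.7 and 11.3 in the Sham-water libraries, and 17.0, 14.7 and 9.31 in the INO80 siRNA libraries. It only overlaps exons of the gene, and its groups overlap. MSTRG.60934, a locus of 285 bases within an intron, was at 0.227, 1.75 and 3.27 FPKM in the Uninjected libraries. It was at 0.189, 0.713 and 0.53 in the Sham-water libraries, and at 0, 0.201 and 0 in the INO80 siRNA libraries. INO80 siRNA lay below Uninjected without overlap (-1.19 in log2(FPKM + 1), adjusted p = 0.814), which did not pass. Only the Uninjected mean reached the minimum for testing. Of the summed signal of all transcripts named ACVR1B (FPKM times length), the annotated transcript made up 0.551% in Uninjected 2 and 43.9% in INO80 siRNA 3, with the other libraries in between.

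ACVR2A, a type II receptor for activins, was steadier. Its annotated locus MSTRG.31182 (chromosome 15, 3828378 to 3911122, minus strand) was at 1.08, 1.38 and 0.811 FPKM in the Uninjected libraries, at 1.19, 1.25 and 2.30 in the Sham-water libraries, and at 1.05, 1.09 and 2.40 in the INO80 siRNA libraries. The groups overlap, and the third library is the highest under both injected headings. INO80 siRNA against Sham-water was -0.05 in log2(FPKM + 1), with a standard error of 0.471, an interval from -1.08 to 0.98 and an adjusted p of 0.974.

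BMPR2, the BMP type II receptor, was the only annotated locus of the set with groups that did not overlap. MSTRG.34398 (chromosome 15, 117425964 to 117597333, plus strand) was at 0.886, 1.06 and 1.69 FPKM in the Uninjected libraries, at 0.613, 0.318 and 0.813 in the Sham-water libraries, and at 0.867, 1.31 and 1.21 in the INO80 siRNA libraries. All 3 Sham-water libraries lay below every other library by locus value, though not by the transcript values that follow. The gap was narrow, and INO80 siRNA against Sham-water was 0.44 in log2(FPKM + 1), with a standard error of 0.445, an interval from -0.54 to 1.41 and an adjusted p of 0.639. Over all 27 tested loci, 2 did not overlap between Sham-water and Uninjected, 4 between INO80 siRNA and Uninjected, and 5 between INO80 siRNA and Sham-water. Among all tested loci the shares without overlap were 8.77%, 10.9% and 18%, so the members' counts stand near the background.

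In 2 of the 3 Sham-water libraries another BMPR2 transcript was listed in place of the usual one. ENSSSCT00000034069, of 11326 bases, was at 0.956, 1.13 and 1.83 FPKM in the Uninjected libraries and at 0.936, 1.42 and 1.31 in the INO80 siRNA libraries, but at 0.598, 0 and 0 in the Sham-water libraries. ENSSSCT00000017544, of 3134 bases, was listed at 0 in all Uninjected and INO80 siRNA libraries and at 0.111, 1.11 and 3.02 FPKM in the Sham-water libraries. The longer transcript thus made up 99.2% to 100% of the locus signal in the Uninjected and INO80 siRNA libraries, and 90.4% in Sham-water 1, where the shorter one held 4.63%. In Sham-water 2 and 3 the shorter one held 89.2% and 95.2%. By its own FPKM the shorter one, at 3.02 in Sham-water 3, was above the longer one in every library. At 1.11 in Sham-water 2 it was within the range of the longer one under the other headings. The low Sham-water locus values join transcripts of unlike length and are not read as fewer BMPR2 transcripts. In limma over 111564 transcripts, the adjusted p against Uninjected was 0.938 for both, and against INO80 siRNA it was 0.621 for the longer and 0.614 for the shorter.

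SMAD2, which carries the activin and Nodal signal, was the transducer with the highest level. MSTRG.3389 (chromosome 1, 106900866 to 106991871, minus strand) was at 5.18, 9.83 and 7.20 FPKM in the Uninjected libraries, at 5.35, 6.57 and 11.0 in the Sham-water libraries, and at 10.2, 3.77 and 6.28 in the INO80 siRNA libraries. The groups overlap throughout, and the highest library was 2.92 times the lowest. INO80 siRNA against Sham-water was -0.19 in log2(FPKM + 1), with a standard error of 0.606, an interval from -1.51 to 1.14 and an adjusted p of 0.902. An assembled transcript that shares junctions with SMAD2, MSTRG.3389.1, made up 94.9% to 100% of the locus signal.

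SMAD3, the partner of SMAD2 in activin and Nodal signalling, was low. MSTRG.5872 (chromosome 1, 182898590 to 182926415, minus strand) was at 0.418, 0.337 and 0.249 FPKM in the Uninjected libraries, at 0.200, 0.594 and 1.83 in the Sham-water libraries, and at 0.255, 0.375 and 0.619 in the INO80 siRNA libraries. Sham-water 3 alone passed 1 FPKM, and the groups overlap.

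SMAD4, the partner shared by the activin, Nodal and BMP branches, lay between them. MSTRG.3590 (chromosome 1, 110491970 to 110563192, plus strand) was at 2.95, 2.52 and 3.66 FPKM in the Uninjected libraries, at 2.28, 1.93 and 4.83 in the Sham-water libraries, and at 3.27, 1.96 and 1.42 in the INO80 siRNA libraries. The groups overlap, with the highest and the second lowest values both under Sham-water. INO80 siRNA against Sham-water was -0.29 in log2(FPKM + 1), with a standard error of 0.530, an interval from -1.45 to 0.87 and an adjusted p of 0.806.

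Transcript shares of SMAD4 split by library and not by heading. The known transcript ENSSSCT00000004997 made up 40.1% to 96.7% of the locus signal in 7 libraries and 0% in Uninjected 3 and Sham-water 3. There an assembled transcript with shared junctions, MSTRG.3590.3, held 91% and 93.5%, and it held 34.6% in INO80 siRNA 1. FST showed a similar spread, its known transcript ENSSSCT00000023776 making up 20.9% of the locus in Uninjected 1 and 92.8% in Uninjected 3. Of the 16 transcripts of the members, 10 could be tested, and none passed in any comparison or had an unadjusted p under 0.05. Their lowest adjusted p was 0.938, 0.844 and 0.614 for Sham-water against Uninjected, INO80 siRNA against Uninjected and INO80 siRNA against Sham-water. Among all transcripts tested 0.000896%, 0.00538% and 0.00448% passed, and 3.98%, 5.43% and 8.17% had an unadjusted p under 0.05.

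**Figure D2:**
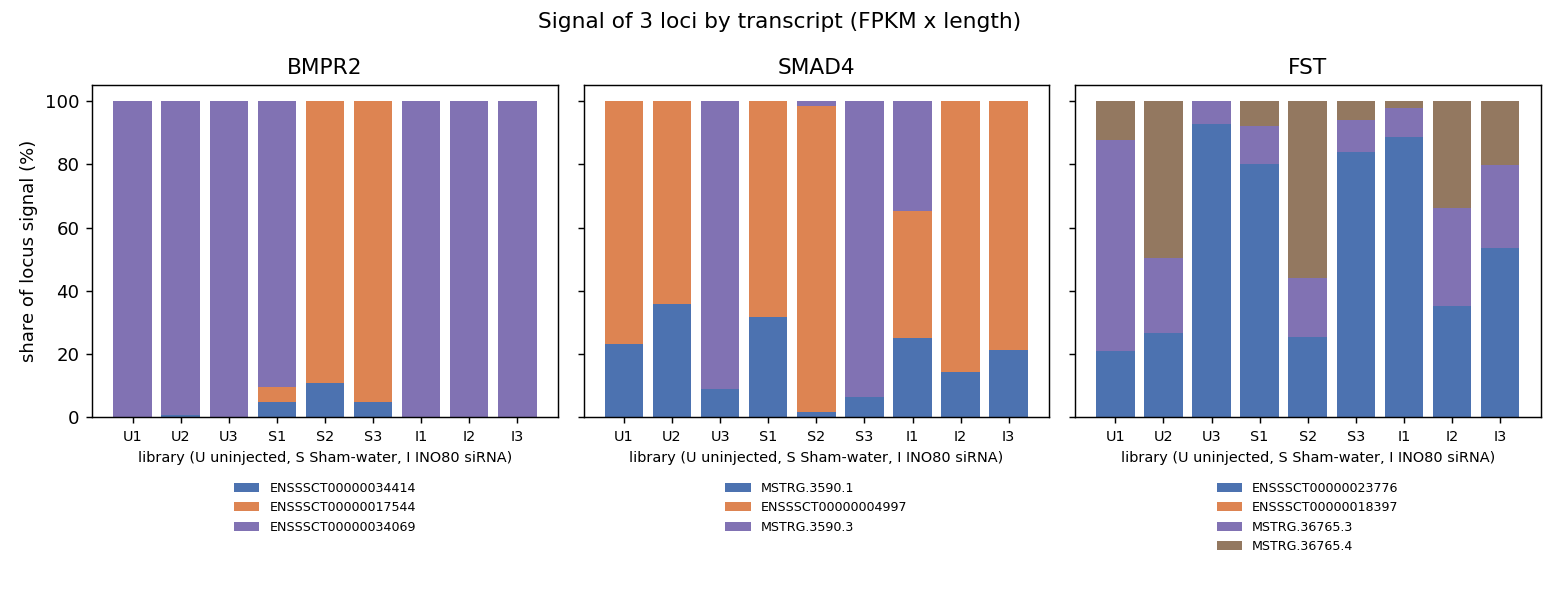
Share of locus signal (%, FPKM times length) taken by each transcript of BMPR2, SMAD4 and FST, one bar per library. In BMPR2 the shorter ENSSSCT00000017544 fills Sham-water 2 and 3, in SMAD4 MSTRG.3590.3 fills Uninjected 3 and Sham-water 3, and in FST the shares differ within every heading group.

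How much of the signal under a name came from such transcripts differed between the genes. Of 96 transcripts with a member name, 80 are of such classes: 40 lie within introns, 23 are antisense to exons and 17 overlap exons on the same strand. The 40 were not split by strand, and those of MSTRG.34396 lie on the minus strand, opposite to BMPR2. The 23 are thus not all transcripts of the opposite strand. Over the 80, the median length is 261.5 bases, 62 are at most 300 bases long and 66 have 2 exons. Annotated transcripts made up 6.23% to 41.2% of the signal named BMPR2 and 25.2% to 85.9% of that named SMAD4. They made up 71.8% to 99.8% of the signal named FST, 84.4% to 99.9% of that named SMAD2 and 100% of that named SMAD3. No source used here states whether the authors counted by strand, and without that, antisense signal and signal of the gene itself cannot be told apart.

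A locus antisense to SMAD2 was the member locus with the smallest p in Sham-water against Uninjected. MSTRG.3390 (chromosome 1, 106962252 to 106983576, plus strand), a transcript of 1076 bases inside the span of SMAD2, was at 2.35, 1.99 and 1.33 FPKM in the Uninjected libraries, at 0.271, 0.122 and 0.169 in the Sham-water libraries, and at 0.227, 0.117 and 0.0208 in the INO80 siRNA libraries. Every Uninjected library lay above every other library. Only the Uninjected mean, 1.89 FPKM, reached the minimum, so the locus entered the test through the group where it is high. In log2(FPKM + 1) Sham-water stood at -1.27 against Uninjected (standard error 0.447, adjusted p = 0.915) and INO80 siRNA at -1.35 (adjusted p = 0.814), and neither passed. SMAD2 itself, given above, overlapped between all groups.

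A locus antisense to SMAD4 had the smallest p of the members in INO80 siRNA against Uninjected. MSTRG.3589 (chromosome 1, 110479457 to 110509212, minus strand), a transcript of 436 bases, was at 0, 0 and 0.240 FPKM in the Uninjected libraries, at 0.165, 0.389 and 0 in the Sham-water libraries, and at 5.64, 1.15 and 1.67 in the INO80 siRNA libraries. All 3 INO80 siRNA libraries lay above the other 6, and INO80 siRNA 1 was well above its own group. Only the INO80 siRNA mean, 2.82 FPKM, reached the minimum, so the locus entered the test through the group where it is high. The difference in log2(FPKM + 1) was 1.65 against Uninjected and 1.52 against Sham-water, each with a standard error of 0.531, and the adjusted p of 0.814 and 0.46 did not pass.

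A transcript antisense to ACVR2A, singled out after its values had been seen, separated the headings by more. MSTRG.31181.2 has 270 bases in 2 exons spread over 101853 bases of chromosome 15 (3896808 to 3998660, plus strand), and its span overlaps one end of the ACVR2A locus. It was at 0.109, 0.161 and 0.446 FPKM in the Uninjected libraries, at 0.880, 0.273 and 0.107 in the Sham-water libraries, and at 14.9, 9.39 and 16.6 in the INO80 siRNA libraries. The 3 INO80 siRNA libraries stood well above the other 6, which all stayed below 1 FPKM. The transcript was thus tested only through the INO80 siRNA mean of 13.7 FPKM, the group where it is high. In log2(FPKM + 1) the difference was 3.54 against Uninjected and 3.37 against Sham-water, each with a standard error of 0.573. Adjusted over all transcripts, p was 0.185 and 0.297, so the transcript did not pass. It made up 41.8% to 59.6% of the summed signal named ACVR2A in the INO80 siRNA libraries and 0.48% to 7.11% in the other 6, while the level of annotated ACVR2A overlapped between all groups.

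**Figure D3:**
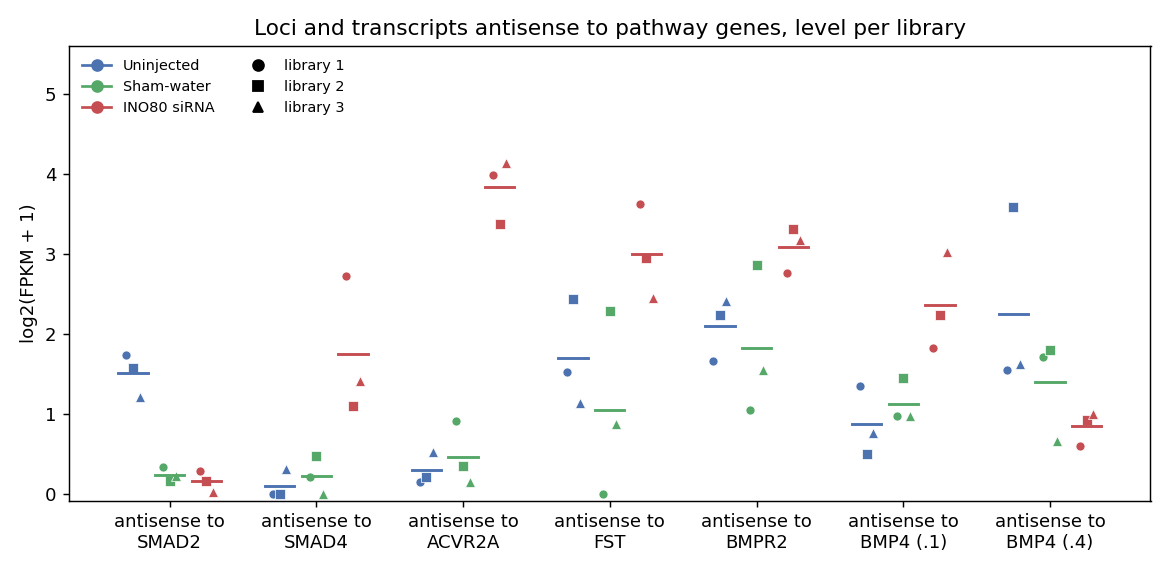
Level of 7 loci or transcripts antisense to pathway genes in each library, as log2(FPKM + 1) on the y axis, chosen after their values had been seen, with bars at the group means. The SMAD2 antisense locus is highest in the 3 Uninjected libraries. MSTRG.3589, antisense to SMAD4, and the transcript antisense to ACVR2A are highest in the 3 INO80 siRNA libraries. Other loci antisense to SMAD4 are not shown, and 2 transcripts antisense to BMP4 (MSTRG.6426.1 and MSTRG.6426.4) go opposite ways.

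Transcripts antisense to FST and BMP4 were less separated. Of 3 antisense to FST, 2 were tested. MSTRG.36764.2 was at 1.87, 4.44 and 1.21 FPKM in the Uninjected libraries, at 0, 3.87 and 0.842 in the Sham-water libraries, and at 11.3, 6.72 and 4.45 in the INO80 siRNA libraries. The INO80 siRNA libraries lay above the other 6, narrowly at the closest pair, 4.45 against 4.44 FPKM, and adjusted p was 0.8 against Uninjected and 0.603 against Sham-water. MSTRG.36757.2 also had its 3 INO80 siRNA libraries, at 4.42, 5.12 and 1.42 FPKM, above the other 6, of which the highest was at 1.22 FPKM. It did not pass either (adjusted p = 0.8 and 0.598), and only its INO80 siRNA mean reached the minimum for testing. The locus of the first, MSTRG.36764, holds 5 transcripts of which 4 have no name, so its value is not used for FST. BMP4 had 4 antisense transcripts with no common direction. MSTRG.6426.1 was at 1.55, 0.416 and 0.694 FPKM in the Uninjected libraries, at 0.965, 1.73 and 0.966 in the Sham-water libraries, and at 2.55, 3.71 and 7.11 in the INO80 siRNA libraries, all 3 of which were above the other 6. Its adjusted p was 0.8 against Uninjected and 0.612 against Sham-water. MSTRG.6426.4 went the other way, at 1.92, 11 and 2.10 FPKM in the Uninjected libraries, at 2.29, 2.50 and 0.583 in the Sham-water libraries, and at 0.524, 0.907 and 1.01 in the INO80 siRNA libraries. INO80 siRNA lay below Uninjected without overlap (-1.40 in log2(FPKM + 1), adjusted p = 0.8), and the whole antisense locus MSTRG.6426 overlapped in every comparison. Antisense transcripts of BMPR2 also went both ways against Sham-water, MSTRG.34396.1 at 1.32 and MSTRG.34394.1 at -1.94, with overlap. Of transcripts with an unadjusted limma p under 0.05, 4615 of 6053 were higher under INO80 siRNA against Uninjected and 7728 of 9117 against Sham-water. That excess differed with scaling and with the class of transcript. With quantile normalization 2883 were higher and 2259 lower against Uninjected, and 3331 higher and 5141 lower against Sham-water. Among annotated transcripts fitted alone, 254 were higher and 584 lower against Uninjected, and 288 higher and 1530 lower against Sham-water.

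The directions of the member loci are read here beside those of the whole table. Over all tested loci the median difference in log2(FPKM + 1) was -0.27 for Sham-water against Uninjected, 0.21 for INO80 siRNA against Uninjected and 0.57 for INO80 siRNA against Sham-water, and over the 27 tested member loci it was -0.34, 0.19 and 0.60. Over annotated loci of the table the median had the opposite sign in each comparison, at 0.16, -0.20 and -0.34. Over the 6 tested annotated members it was -0.03, -0.22 and -0.17. After quantile normalization the median of all loci was 0.01, -0.02 and 0.03 and that of annotated loci 0.56, -0.44 and -0.99. The part of this library-wide split in the differences of single loci was not tested.

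**Figure D4:**
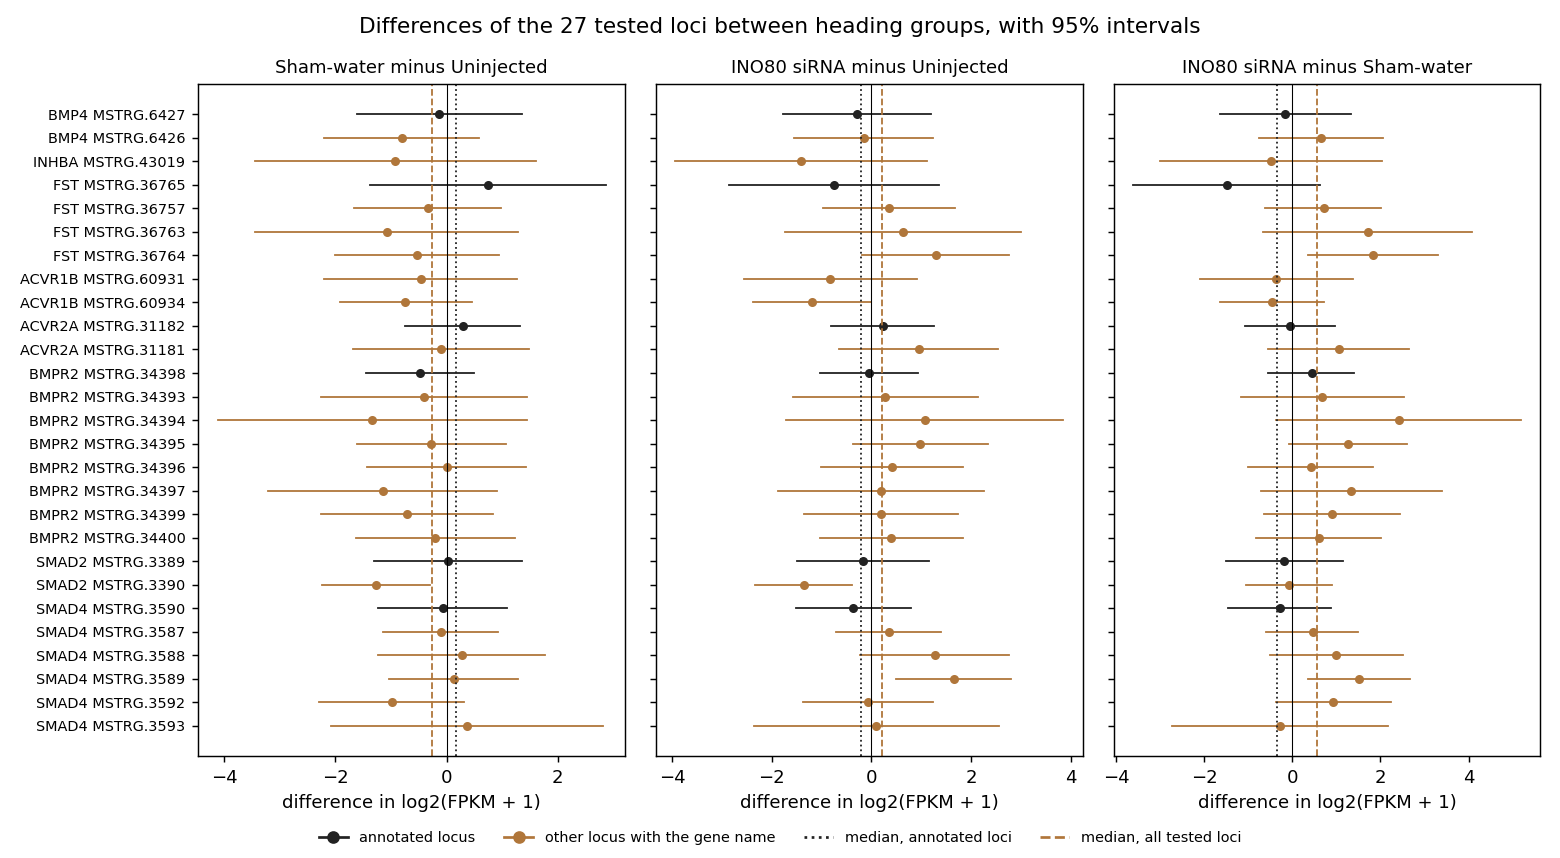
Differences of the 27 tested loci in log2(FPKM + 1) between heading groups, with 95% intervals from limma, black for annotated loci and brown for other loci. Dotted and dashed lines mark the median of annotated and of all tested loci, and the brown points follow the dashed line, from -0.27 in the first panel to 0.57 in the third.

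The rest of the pathway was followed under 82 further gene names, among them both T and TBXT for the same gene. Of these names 57 had an annotated locus and 31 could be tested. None passed in any comparison, and 1, 2 and 1 had an unadjusted p under 0.05 for Sham-water against Uninjected, INO80 siRNA against Uninjected and INO80 siRNA against Sham-water. Over all annotated loci tested, the shares with such a p were 1.54%, 1.77% and 7.3%. The median difference of the 31 genes was -0.06, -0.06 and -0.01 on the log2(FPKM + 1) scale. By group of roles, 5 other ligands, 5 receptors and co-receptors, 7 SMADs and nuclear partners, 3 extracellular inhibitors, 4 convertases and ubiquitin ligases and 7 target genes were tested. The genes named next are those with the smallest p of each group.

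Among ligands and receptors, GDF3 and TDGF1 were the high ones. GDF3, a Nodal-related ligand, was at 56.7, 90.1 and 58.2 FPKM in the Uninjected libraries, at 82.7, 62.6 and 51.5 in the Sham-water libraries, and at 53.1, 34.5 and 47.3 in the INO80 siRNA libraries. TDGF1, the Nodal co-receptor also called Cripto, was at 30.6, 22.1 and 28.2 FPKM, at 27.0, 20.2 and 17.0, and at 9.91, 4.29 and 11.5 in the same order. All INO80 siRNA libraries lay below the other 6 for TDGF1, with a difference of -1.63 against Uninjected (adjusted p = 0.814) and -1.30 against Sham-water (adjusted p = 0.472), neither of which passed. TDGF1 is also an epiblast marker, and the summed level of the 6 epiblast markers found ran from 126 to 229 FPKM in the Uninjected libraries, from 128 to 273 in the Sham-water libraries and from 82 to 231 in the INO80 siRNA libraries. POU5F1 and DPPA5 make up most of that sum. Of the 4 epiblast markers tested, 1 had a positive difference in each comparison of INO80 siRNA, and their median was -0.86 against Uninjected and -1.11 against Sham-water. The positive one was DPPA5, at 0.74 against Uninjected and 0.37 against Sham-water, with overlapping groups. KLF17, another of the 4, was at 8.52, 7.69 and 6.04 FPKM in the Uninjected libraries, at 11.9, 23.1 and 23.9 in the Sham-water libraries, and at 0.986, 3.05 and 8.28 in the INO80 siRNA libraries. There it lay below Sham-water without overlap (-2.23, adjusted p = 0.459) and overlapped Uninjected (-0.99, adjusted p = 0.814). SOX2 was at 0 in all 3 INO80 siRNA libraries, and also in Uninjected 2, Sham-water 1 and Sham-water 3. NANOG had no annotated locus, and the part of the epiblast share in the TDGF1 values was not tested. GDF9, an oocyte ligand, reached at most 3.19 FPKM and TGFBR1, the TGF-beta type I receptor, at most 2.35 FPKM, with overlapping groups.

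Among nuclear partners and inhibitors, TGIF1, a repressor that binds SMADs, differed most. It was at 0.719, 3.23 and 0.916 FPKM in the Uninjected libraries, at 4.29, 14.7 and 11.0 in the Sham-water libraries, and at 2.22, 0.203 and 3.28 in the INO80 siRNA libraries. All Sham-water libraries were above the other 6, with 2.06 against Uninjected (adjusted p = 0.915) and INO80 siRNA at -1.97 against Sham-water (adjusted p = 0.46). FOXH1, the DNA-binding partner of SMAD2 in the Nodal response, was at 0.771 to 1.78 FPKM in the Uninjected libraries, above all Sham-water libraries and overlapping the INO80 siRNA ones. BAMBI, a decoy receptor, and TWSG1, a BMP-binding protein, reached at most 6.29 and 3.93 FPKM with overlapping groups.

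FURIN, a protease that cleaves ligand precursors, was at 4.57, 9.98 and 10.3 FPKM in the Uninjected libraries, at 10.6, 4 and 4.91 in the Sham-water libraries, and at 0.324, 4.34 and 1.66 in the INO80 siRNA libraries. INO80 siRNA lay below Uninjected without overlap, at -1.73 (adjusted p = 0.814), and crossed Sham-water. NEDD4L, a ubiquitin ligase of SMADs, had groups that overlap, at 0.905 to 2.57 FPKM. Of the target genes, ID1, a BMP target, was highest in INO80 siRNA 3 at 6.49 FPKM and overlapped between groups. TFAP2C, also a trophectoderm marker, was at 6.37, 36.6 and 47.6 FPKM in the Uninjected libraries, at 12.8, 3.99 and 6.15 in the Sham-water libraries, and at 16, 29.2 and 21.5 in the INO80 siRNA libraries. INO80 siRNA was above Sham-water without overlap, at 1.52 (adjusted p = 0.485). The summed level of the 9 trophectoderm markers ran from 3020 to 8780, from 3790 to 8800 and from 1890 to 5360 FPKM under the 3 headings. KRT8, KRT18 and PTGES make up most of that sum. The median difference of the 8 tested markers was -0.84 for INO80 siRNA against Uninjected and -1.14 against Sham-water, with 1 and 2 of them positive. KRT8 lay below Sham-water without overlap (-1.36, adjusted p = 0.46), opposite to TFAP2C. The part of the trophectoderm share in these values was not tested.

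Activins and follistatin are also products of cumulus and granulosa cells, which surround the oocyte. Of 13 listed markers of these cells, 9 had an annotated locus and 1, SERPINE2, passed the minimum, at 8.26 to 45.6 FPKM. The defining markers CYP19A1, FOXL2 and INHA stayed at or below 0.598 FPKM in all 9 libraries.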

How the data were processed

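Values are FPKM per locus and per transcript, as deposited by the authors. The submitters' processing notes list StringTie, HISAT2, fastp, edgeR, HOMER and ChIPseeker, with no versions, and name a human build although the transcript IDs are of pig. No source used here gives the order of steps, the strand setting or the pig build. Depth is not given, so no counting interval could be set. Column headings gave the groups, and 9 coverage columns were not used.

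The test was limma 3.58.1, run in R 4.3.3 on log2(FPKM + 1), two-sided, with trend and robust options. It took loci, or transcripts, whose mean reached 1 FPKM under at least 1 heading. All 9 libraries entered one fit, p-values were adjusted by Benjamini-Hochberg over all loci or all transcripts, and the threshold was 0.05. For low genes this scale shrinks the difference. The procedure was tested on simulated data, in which only loci of higher level were changed. That run therefore does not show what would be detected among the low members. Python 3.11.15, pandas 2.3.3 and matplotlib 3.10.9 made the other tables and the plots.

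Genes and lists were chosen with earlier results of these data known. All members are named, and each list of other pathway genes is represented by its 2 genes with the smallest p, since none passed. Alternatives were a pseudocount of 0.1, no filter, a minimum of 5 FPKM, quantile normalization, median scaling, annotated loci only, no trend, the 2 compared groups alone, the replicate number as a block and each library left out. No sequence is printed.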

Additional observations from a re-analysis of the deposited data

How the results depend on the processing

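No member locus and no member transcript passed under any alternative run, and the lowest adjusted p was 0.191 for a locus and 0.344 for a transcript. For transcripts, the scalings, the minimum of 5 FPKM, annotated transcripts only, no trend and 2 groups only were added after seeing the data. The count over all loci, 0, 1 and 1 for Sham-water against Uninjected, INO80 siRNA against Uninjected and INO80 siRNA against Sham-water, was 0 in the last 2 comparisons with a pseudocount of 0.1, a minimum of 5 FPKM, annotated loci only, the replicate block or 2 groups only. Leaving out 1 library gave 0 to 1, 0 to 1 and 0 to 7 loci. The first comparison had 1 call without Uninjected 1. The second had 0 without Uninjected 2 or 3, Sham-water 1 or 3, or INO80 siRNA 1 or 3. The third had 7 without INO80 siRNA 1, 2 without Uninjected 2, 1 without INO80 siRNA 2 and 0 without each of the others. The cause was not tested. Same-numbered libraries deviated from their group means with correlations of -0.07 to 0.13, so the numbers were not taken to pair libraries, and the block changed no call of a member.

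Signs of small differences were not stable: of 81 differences of member loci, 40 changed sign on leaving out 1 library and 28 under a scaling alternative. For INO80 siRNA against Sham-water, median scaling over annotated loci reversed BMP4 (0.14), ACVR2A (0.24), SMAD2 (0.27) and SMAD4 (0.10), and quantile normalization reversed BMPR2 (-0.14). Without 1 library the values ran from -0.64 to 0.50 for BMP4, from -0.29 to 0.14 for ACVR2A, from -0.50 to 0.12 for SMAD2 and from -0.51 to 0.01 for SMAD4. FST kept its sign, with -2.28 to -0.90 without 1 library, -2.12 with quantile normalization and -1.01 with median scaling. The 3 antisense features that follow kept their sign in the alternatives that gave them a value. Their compared groups do not overlap, so leaving out a library, another pseudocount or another fit could not reverse a sign. Only a change of scaling could have. The SMAD2 antisense locus ran from -3.25 to -1.24 for INO80 siRNA against Uninjected, and MSTRG.3589, antisense to SMAD4, from 1.16 to 3.95. The ACVR2A antisense transcript ran from 3.07 to 5.43 in the same comparison, with an adjusted p of 0.103 to 0.506 (0.155 to 0.735 against Sham-water). For that transcript the alternatives were chosen after seeing the data.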
